A study of Homo sapiens with 37 samples.

Results

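Counts of 6 spliceosomal small nuclear RNAs (snRNAs) were followed through an RNA proximity-labelling study: RNU2-2P (a U2 gene), RNU4-1 and RNU4-2 (the U4 genes), RNU5A-1 and RNU5B-1 (U5 genes) and RNU4ATAC (U4atac). They were chosen by Ensembl ID, 6 of 60483 IDs in each of the deposited count tables. The tables hold IDs alone, so the names are those given with the choice of IDs. RNA near an APEX fusion protein, a peroxidase that attaches biotin-phenol to nearby molecules, was set against unselected RNA from such cells, and the comparison of interest was how much of each snRNA a nuclear fusion labelled as against cytoplasmic ones.

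snRNAs are the RNA cores of the spliceosome. U2 pairs with the branch point of the intron, U4 holds U6 inactive until it is released during activation, and U5 contacts the exon ends at the splice sites. U4atac takes the place of U4 in the minor spliceosome, which removes a small class of introns. These RNAs are transcribed by RNA polymerase II, pass through the cytoplasm to receive their ring of Sm proteins, and return to the nucleus, where they work.

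Per RefSeq on GRCh38.p14, RNU4-2 (ENSG00000202538.1) lies at chr12:120291759-120291903 and RNU4-1 (ENSG00000200795.1) at chr12:120293093-120293237, with 1189 bases between them. Both are 145 bases long and both fall within the span of the protein-coding gene SIRT4. RNU5A-1 (ENSG00000199568.1, chr15:65296051-65296167) and RNU5B-1 (ENSG00000200156.1, chr15:65304677-65304793) are 117 bases each, 8509 bases apart, and overlap no other RefSeq gene. RNU4ATAC (ENSG00000264229.1, chr2:121530880-121531009) is 130 bases long and lies within CLASP1 and CLASP1-AS1. RNU2-2P (ENSG00000222328.1, chr11:62841619-62841809), 191 bases long, is listed by RefSeq as the snRNA gene RNU2-2 and overlaps WDR74. The U4 genes are near-identical copies, as are U2 and U5 genes elsewhere in the genome, so the split of reads between copies depends on a counting rule that the labels do not give, and values of single copies are uncertain.

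All 37 libraries came from HEK293T cells, a human embryonic kidney line. The labels give 1 labelling protocol throughout, with 30 min in 500 µM biotin-phenol and 1 min in 1 mM H2O2. The naive table holds 2 pulldowns (RNA bound to streptavidin beads) and 2 inputs for each of 5 constructs in unstressed cells: APEX-CBX1, whose partner is a chromatin protein of the nucleus; C1-APEX, anchored to the endoplasmic reticulum; APEX-eIF4E, the mRNA cap-binding protein; APEX-eIF4A, the helicase of the same initiation complex; and APEX-GFP, with no such partner. C1, eIF4E and eIF4A are taken here as the cytoplasmic constructs. The stress table holds APEX-eIF4A cells only, with 2 pulldowns and 2 inputs each at T0 (unstressed), at T20 of heat shock and under hippuristanol, an eIF4A inhibitor. T4 of heat shock has 1 library of each kind, and DMSO has 2 pulldowns and 1 input. The labels give no unit for T. They leave unstated whether a line is 1 clone and whether replicates came from separate cultures, so the spread behind each p-value may be technical. These are bulk libraries, in which fewer labelled cells and less RNA per cell cannot be told apart.

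Total counts were 1718517 to 3276410 in naive pulldowns and 1419968 to 2629957 in naive inputs. In the stress table they were 707356 to 1221213 in pulldowns and 4540426 to 7782943 in inputs. The 10 highest IDs of each table took 55.6% to 70.0% of counts in naive pulldowns and 68.6% to 75.3% in naive inputs, but 16.7% to 30.7% in stress-table pulldowns and 6.08% to 16.3% in stress-table inputs. The libraries of the tables thus differed in make-up, and levels are not set against each other across them. Among naive pulldowns the C1 pair was the least alike: the log2 CPM of tested IDs correlated at 0.761 between them, while the other 4 naive pairs of pulldowns reached 0.904 to 0.951. The stress-table pulldown pairs were less alike than any naive pair, at 0.613 for T20, 0.615 for DMSO, 0.649 for T0 and 0.730 for hippuristanol.

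The U4 genes had enough counts to be tested in both tables and the U5 genes only in the stress table, while RNU2-2P and RNU4ATAC did not pass the filter on low counts in either (2 of 6 passed in the naive and 4 of 6 in the stress table). RNU2-2P had 0 counts in all 37 libraries. Over their 102225216 summed counts, 0 allows up to 0.0293 CPM (counts in each 1000000), for counting error only and for reads assigned to this ID, not for U2 as a whole. RNU4ATAC had 28 counts in all: 1 in the naive pulldowns, 3 in the naive inputs, 8 in the stress-table pulldowns and 16 in the stress-table inputs. It was at 0 in 24 of 37 libraries and never above 5 counts, so no difference was detectable at this depth. Levels below are CPM after TMM scaling, a factor per library that sets most IDs equal between libraries. A change is called at a Benjamini-Hochberg adjusted p under 0.05, over all tested IDs, in edgeR's quasi-likelihood test.

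RNU4-2 was the most abundant member in the naive table and lay lower in the pulldown than in the input of every construct. It measured 7.02 and 5.98 CPM in the CBX1 pulldowns, against 13.8 and 10.3 CPM in the CBX1 inputs. In the C1 pulldowns it measured 2.74 and 2.14 CPM, against 11.7 and 11.96 CPM in the C1 inputs. In the eIF4E pulldowns it measured 1.10 and 2.60 CPM, against 12.7 and 38.6 CPM in the eIF4E inputs. In none of these constructs did a pulldown reach the level of an input. The eIF4A pulldowns held 2.78 and 0.588 CPM, against 6.87 and 9.56 CPM in the eIF4A inputs. The GFP pulldowns were far apart, at 0.973 and 6.99 CPM, against 10.4 and 10.1 CPM in the GFP inputs. Pulldown and input ranges thus did not overlap in 5 of 5 constructs. The share of all tested IDs without overlap was not counted, here or for the other genes below, so such counts carry no background. These levels rest on 2 to 27 counts per pulldown and 7 to 58 per input.

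RNU4-1, its near-identical neighbour, followed the same pattern in 4 of 5 constructs. The exception was CBX1, whose pulldowns held 5.46 and 1.41 CPM, on either side of the CBX1 inputs at 2.52 and 3.03 CPM. The C1 pulldowns held 3.84 and 1.29 CPM, against 11.7 and 3.99 CPM in the C1 inputs. The eIF4E pulldowns held 1.47 and 1.45 CPM, against 8.47 and 13.3 CPM in the eIF4E inputs. Here, too, the eIF4E libraries had the widest gap. The eIF4A pulldowns held 1.27 and 0.882 CPM, against 1.964 and 5.03 CPM in the eIF4A inputs. The lower of these inputs held 2 counts, below a floor of 3 counts (2.95 CPM in that library), so the order in eIF4A is not resolved. The GFP pulldowns held 1.95 and 1.75 CPM, against 5.45 and 9.16 CPM in the GFP inputs.

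**Figure D1:**
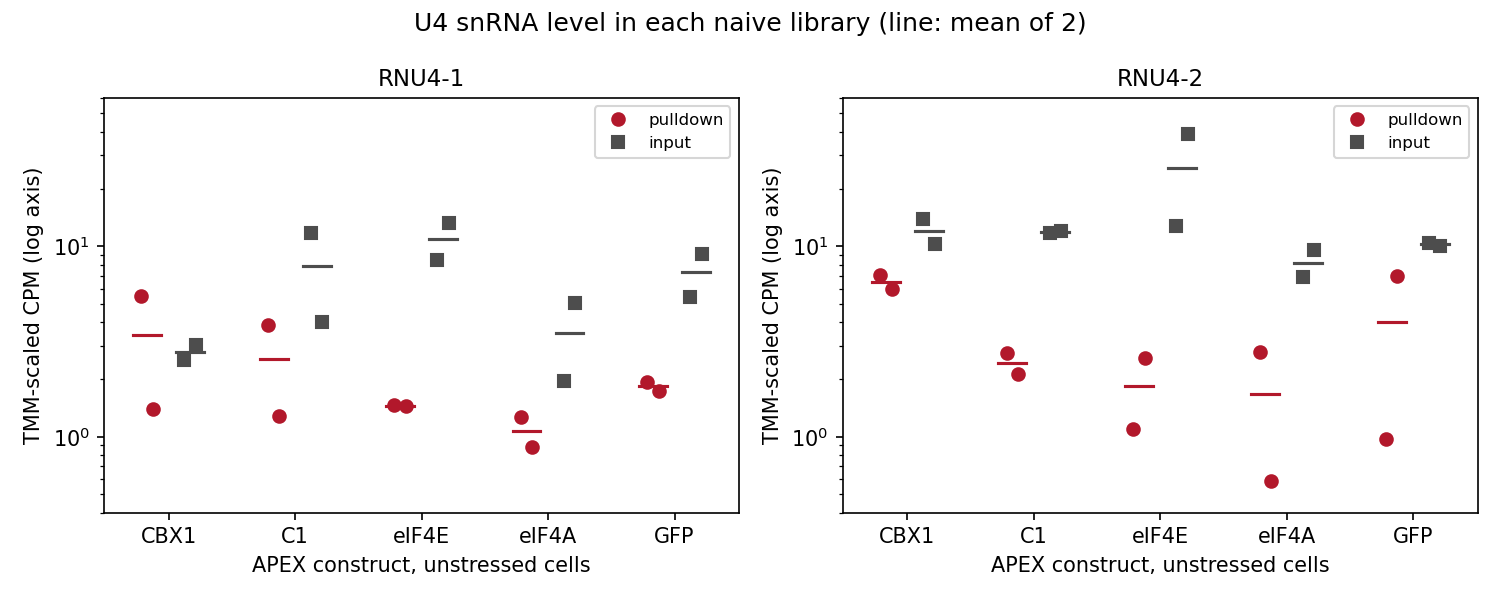
TMM-scaled CPM (log axis) of RNU4-1 and RNU4-2 in each of the 20 naive libraries, by construct, with pulldowns as red circles, inputs as grey squares and lines at the mean of 2. The CBX1 pulldowns of RNU4-2, at 7.02 and 5.98 CPM, lie above all C1, eIF4E and eIF4A pulldowns, and every RNU4-2 pulldown lies below the inputs of its construct.

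Only the depletion from the eIF4E pulldown passed the test, where both U4 genes fell. RNU4-2 fell by 3.73 ± 0.63 on the log2 scale (SE; edgeR adjusted p = 0.000477) and RNU4-1 by 2.87 ± 0.73 (adjusted p = 0.0287). In that comparison 2.51% of all 12427 tested IDs were called, 1.29% as lower in the pulldown, and the median log2 fold change of all tested IDs was 0.02. eIF4E input replicate 2 had the highest level of all naive inputs for RNU4-1, RNU4-2, RNU5A-1 and RNU5B-1. Without it RNU4-2 gave a log2 fold change of -2.68 (edgeR adjusted p = 0.16) and RNU4-1 one of -2.48 (adjusted p = 0.411), so neither was called. RNU4-2 gave -4.50 without eIF4E pulldown replicate 2, a call that held. The RNU4-1 call was lost in each of the 4 fits without 1 library (adjusted p 0.0636 to 0.411).

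For the other constructs 0 of 2 U4 genes were called by edgeR. C1 gave log2 fold changes of -2.26 ± 0.70 for RNU4-2 (SE; edgeR adjusted p = 0.0501) and -1.68 ± 0.74 for RNU4-1 (adjusted p = 0.173), where 6.45% of tested IDs were called. eIF4A gave -2.24 ± 0.69 for RNU4-2 (edgeR adjusted p = 0.102) and -1.76 ± 0.83 for RNU4-1 (adjusted p = 0.403), where 2.18% were called. GFP gave -1.32 ± 0.62 for RNU4-2 (edgeR adjusted p = 0.288) and -1.95 ± 0.75 for RNU4-1 (adjusted p = 0.166), where 4.04% were called. In each of these, 2 of 2 had an unadjusted p under 0.05. So did 2772 of all 12427 tested IDs for C1, 1464 for eIF4A and 2010 for GFP. CBX1 gave -0.88 ± 0.57 for RNU4-2 (edgeR adjusted p = 0.465) and 0.35 ± 0.76 for RNU4-1 (adjusted p = 0.873), where 3.91% were called. There 0 of 2 had an unadjusted p under 0.05, against 2070 of all tested IDs. DESeq2 called RNU4-2 for C1, among 606 of all IDs, and gave neither U4 gene an adjusted p for the other 4 constructs. The sign of RNU4-1 for CBX1 rested on CBX1 pulldown replicate 1, without which it was -0.95.

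**Figure D2:**
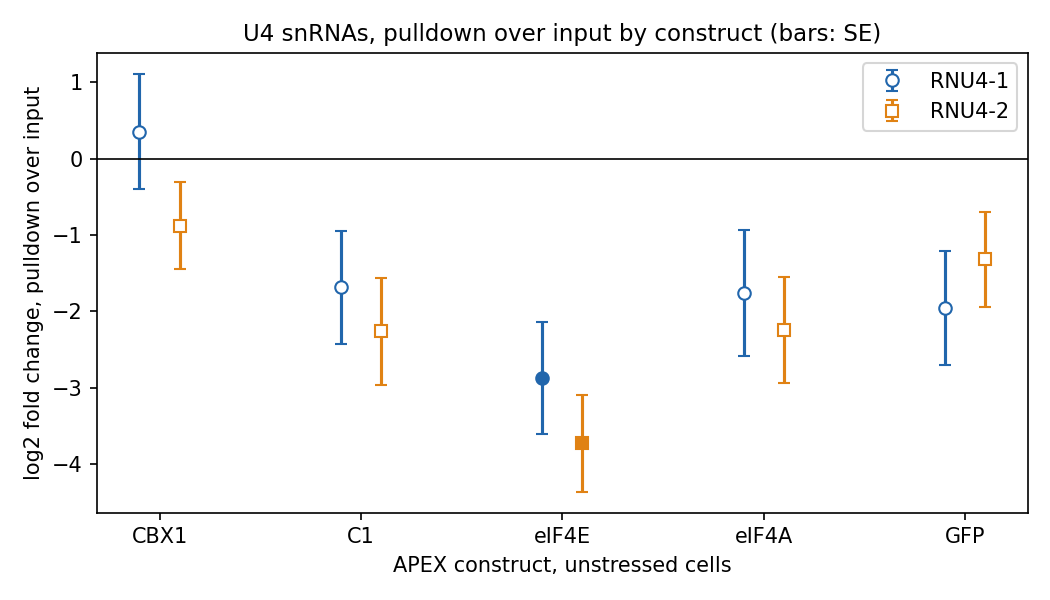
Log2 fold change of pulldown over input for RNU4-1 (blue circles) and RNU4-2 (orange squares) in each construct, with the SE as bars. Filled symbols passed an edgeR adjusted p of 0.05, which holds for eIF4E alone, at -2.87 and -3.73, and CBX1 lies nearest to 0 for both genes.

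The nuclear construct held more RNU4-2 than the cytoplasmic ones when pulldowns were compared with each other. The 2 CBX1 pulldowns, at 7.02 and 5.98 CPM, lay above all 6 cytoplasmic pulldowns, which ran from 0.588 to 2.78 CPM with a median of 2.37. Separation of this kind was not counted over all tested IDs, so it carries no background. The lowest value, in eIF4A pulldown replicate 2, was 2 counts, below the floor of 3 counts (0.882 CPM there). That floor also lies below both CBX1 pulldowns. RNU4-2 was higher in CBX1 than in the mean of C1, eIF4E and eIF4A by 1.68 ± 0.50 on the log2 scale (SE; edgeR adjusted p = 0.0348), about 3.20-fold. In that comparison 9.31% of tested IDs were called, and 4.83% were called as higher in CBX1. RNU4-1 gave a log2 difference of 1.15 ± 0.57 (edgeR adjusted p = 0.217), with the CBX1 pulldowns at 5.46 and 1.41 CPM, against 0.882 to 3.84 CPM in the cytoplasmic pulldowns, which overlap.

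These differences rested on few libraries. The RNU4-2 call was lost without CBX1 pulldown replicate 1 (edgeR adjusted p = 0.296), CBX1 pulldown replicate 2 (0.106), eIF4A pulldown replicate 2 (0.0774) or eIF4E pulldown replicate 1 (0.0685), with log2 differences of 1.46 to 2.18 over all 8 such fits, and with only the pulldowns compared in the fit (log2 difference 1.69, adjusted p = 0.211). It held without either of the weakly correlated C1 pulldowns, at 1.72 without replicate 1 (edgeR adjusted p = 0.0132) and 1.63 without replicate 2 (0.0143). RNU4-1 gave -0.14 without CBX1 pulldown replicate 1.

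The inputs of the same cells were compared in the same way. RNU4-2 was at 13.8 and 10.3 CPM in the CBX1 inputs, against 6.87 to 38.6 CPM in the 6 cytoplasmic inputs, which differed by -0.19 ± 0.47 on the log2 scale (SE; edgeR adjusted p = 0.902). RNU4-1 was at 2.52 and 3.03 CPM in the CBX1 inputs, against 1.964 to 13.3 CPM in the cytoplasmic inputs, a log2 difference of -1.31 ± 0.66 (adjusted p = 0.352), where 2.95% of tested IDs were called. Subtracting the input difference gave, for CBX1 over the cytoplasmic constructs, 1.87 ± 0.69 for RNU4-2 (edgeR adjusted p = 0.355) and 2.46 ± 0.87 for RNU4-1 (adjusted p = 0.323). Neither was called, where 0.459% of tested IDs were. Both had an unadjusted p under 0.05 (0.0117 and 0.00873), as did 1177 of all tested IDs, and DESeq2 gave neither gene an adjusted p. Over the 16 fits without 1 library the input-adjusted difference stayed above 0, at 1.54 to 2.35 for RNU4-2 and 1.15 to 3.06 for RNU4-1. For RNU4-2 the larger part lay between the pulldowns. For RNU4-1 the parts, 1.15 ± 0.57 between pulldowns and -1.31 ± 0.66 between inputs, were too close in size to rank.

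**Figure D3:**
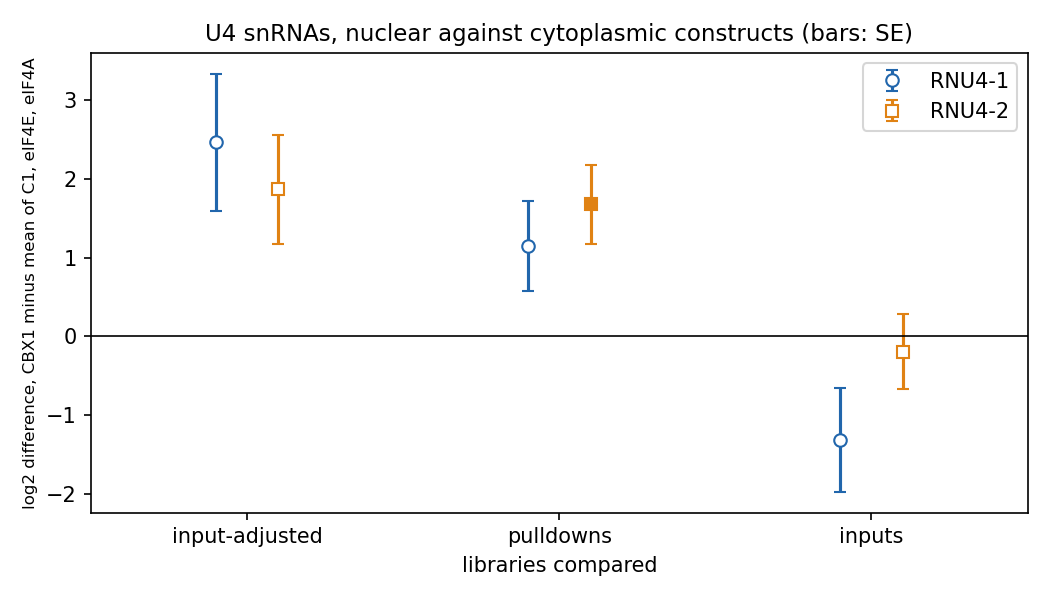
Log2 difference between CBX1 and the mean of C1, eIF4E and eIF4A for RNU4-1 (blue circles) and RNU4-2 (orange squares), input-adjusted, between pulldowns and between inputs, with the SE as bars. The filled symbol, RNU4-2 between pulldowns at 1.68, is the single one past an edgeR adjusted p of 0.05.

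GFP lay between the nuclear and cytoplasmic constructs in its mean level of RNU4-2. Among pulldowns the order was CBX1 at 6.50 ± 0.74 CPM, GFP at 3.98 ± 4.25, C1 at 2.44 ± 0.43, eIF4E at 1.85 ± 1.06 and eIF4A at 1.69 ± 1.55 (SD, n = 2 each). The spreads of neighbours in this order overlapped, and 1 GFP pulldown reached the CBX1 level. For RNU4-1 the order was CBX1 at 3.43 ± 2.87 CPM, C1 at 2.56 ± 1.81, GFP at 1.85 ± 0.14, eIF4E at 1.46 ± 0.02 and eIF4A at 1.07 ± 0.27 (SD, n = 2 each). The spreads of CBX1 and of C1 each overlapped those of all other constructs. CBX1 over GFP, input-adjusted, gave 0.44 ± 0.84 for RNU4-2 (SE; edgeR adjusted p = 0.961) and 2.31 ± 1.06 for RNU4-1 (adjusted p = 0.65), where 0.161% of tested IDs were called. Of the U4 genes RNU4-1 alone had an unadjusted p under 0.05 (0.0389), against 912 of all tested IDs. DESeq2 gave neither an adjusted p. Without GFP pulldown replicate 2 RNU4-2 gave 2.46, and without GFP pulldown replicate 1 it gave -0.33.

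U5 counts in the naive table were too low to pass the count filter. RNU5A-1, a U5 gene, had 5 and 1 counts in the CBX1 pulldowns, against 4 and 4 in the CBX1 inputs. Over the 6 cytoplasmic pulldowns it had 0 to 4 counts, against 3 to 22 in the cytoplasmic inputs. The GFP pulldowns had 2 and 0 counts, against 8 and 4 in the GFP inputs. In CPM, all RNU5A-1 pulldowns lay below the inputs of their construct in 5 of 5 constructs. For C1 this rested on library scaling, with 4 counts (2.20 CPM) in pulldown replicate 1 against 3 counts (2.39 CPM) in input replicate 2. So it did for CBX1, with 5 counts (1.30 CPM) in pulldown replicate 1 against 4 counts (2.43 CPM) in input replicate 2. In eIF4A, pulldown replicate 1 held 4 counts (1.01 CPM), against 3 counts (2.95 CPM) in input replicate 1. RNU5B-1, the other U5 gene, was at 0 in 7 of 10 pulldowns and had 1 to 18 counts in every input. Its pulldowns lay below the inputs in 4 of 5 constructs, but in GFP and C1 that order is not resolved. GFP input replicate 1, at 1.36 CPM, lay below the floor of 3 counts in GFP pulldown replicate 1 (1.46 CPM). C1 input replicate 2, at 1.59 CPM, lay below its own floor of 2.39 CPM. Its 7 pulldown counts were 1 in CBX1 replicate 1, 2 in C1 replicate 2 and 4 in eIF4A replicate 1. Both eIF4E pulldowns were at 0 RNU5B-1, against 3.39 and 11.99 CPM in the eIF4E inputs. Taking 3 counts as the floor of each pulldown, the mean level was at least 7.80-fold lower than in those inputs, and at least 3.44-fold lower without eIF4E input replicate 2.

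The CBX1 pulldowns did not stand above the cytoplasmic ones in U5 counts. RNU5A-1 measured 1.30 and 0.352 CPM there, against 0 to 2.20 CPM in the cytoplasmic pulldowns, and RNU5B-1 0.260 and 0 CPM, against 0 to 1.01 CPM. These ranges overlap, and with so few counts a difference was not detectable at this depth. Summed per gene family and divided by length, U4 was 6.46 times as abundant as U5 in CBX1 pulldown replicate 1, on 48 U4 and 6 U5 counts. In CBX1 pulldown replicate 2 the ratio was 16.9 on 21 U4 counts and 1 U5 count, with an exact 95% interval of 2.73 to 701 for counting error only. GFP pulldown replicate 2 had 20 U4 counts and 0 U5 counts, a ratio of at least 5.38 at the floor of 3 counts, so high ratios were not limited to CBX1. eIF4E pulldown replicate 1 had 7 U4 counts and 0 U5 counts, a ratio of at least 1.88. The other 6 naive pulldowns gave 1.61 to 3.77 on 2 to 8 U5 counts, and the 10 naive inputs gave 1.57 to 4.24. Exact 95% intervals were 0.330 to 21.2 for eIF4A pulldown replicate 2, 1.05 to 20.4 for eIF4E pulldown replicate 2 and 0.433 to 24.5 for GFP pulldown replicate 1. Each of these spans both CBX1 ratios.

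**Figure D4:**
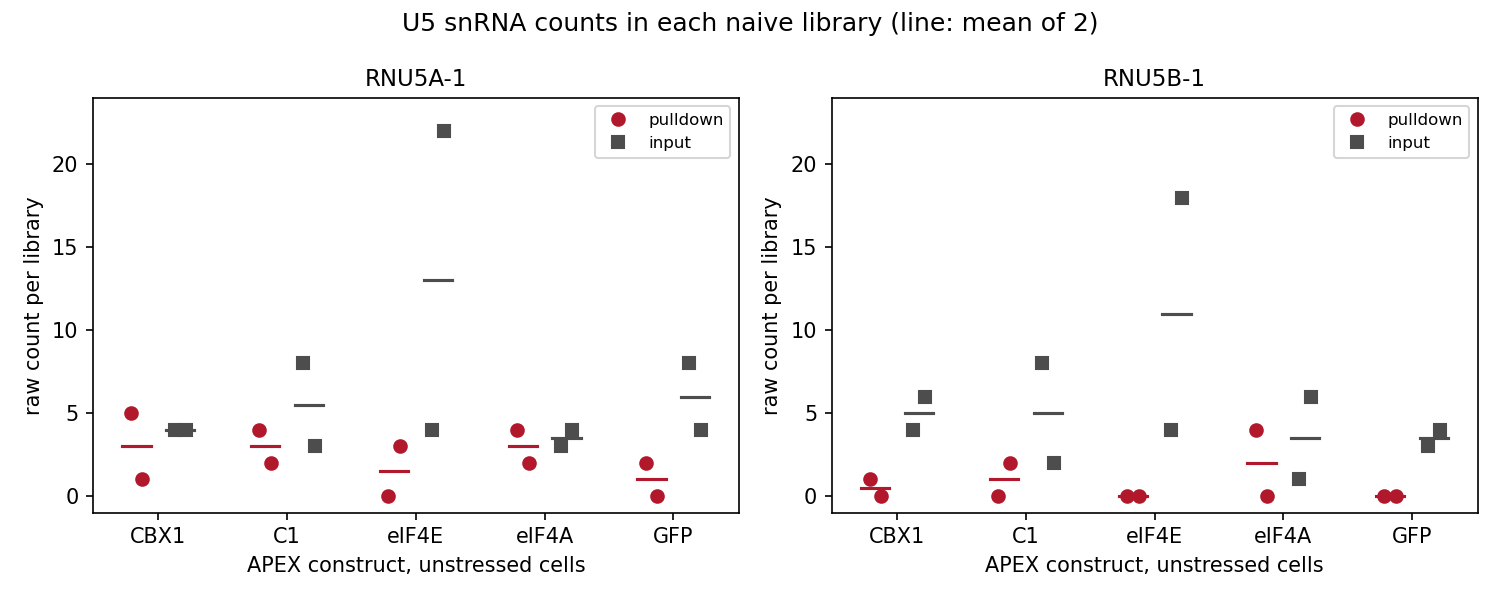
Raw counts of RNU5A-1 and RNU5B-1 in each naive library, by construct, with pulldowns as red circles, inputs as grey squares and lines at the mean of 2. RNU5B-1 is at 0 in 7 of 10 pulldowns, and eIF4E input replicate 2 holds the most of both, at 22 and 18 counts.

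RNU4-2 gave the larger part of U4 counts throughout the stress table. It took 60% to 78.9% of U4 counts in stress-table pulldowns and 61.8% to 86.9% in stress-table inputs, more than RNU4-1 in 17 of 17 libraries. The lowest share was in the T4 pulldown, on 81 RNU4-2 and 54 RNU4-1 counts, and the highest in T20 input replicate 2, on 133 and 20 counts. In the naive table, with fewer counts, the share ran from 33.3% to 81.0% in pulldowns and from 50% to 84.6% in inputs. The genes are equally long, so this is also their order per length. Over the 20 naive libraries log2 CPM of RNU4-1 and RNU4-2 correlated at 0.762, which describes libraries that share the gap between pulldowns and inputs. The ID most like RNU4-2 over those libraries, among the 7920 whose log2 CPM averaged 3 or more, was ENSG00000252481.1 (Pearson's r = 0.908), and that most like RNU4-1 was ENSG00000117335.17 (r = 0.791). Of the 3 IDs most like each U4 gene, 2 were the same. None is named here, since no table used pairs these IDs with symbols.

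In the stress table the snRNAs lay the other way round, higher in eIF4A pulldowns than in inputs, already in unstressed cells. RNU4-2 had 371 and 1104 CPM in the T0 pulldowns, against 25.2 and 67.8 CPM in the T0 inputs. The log2 fold change was 3.99 ± 0.59 (SE; edgeR adjusted p = 0.000726), while the median of all 16678 tested IDs was -0.55, with 0.36% of them called and 0.3% called as higher in the pulldown. With plain library size in place of TMM, 27.1% of called IDs were higher, against 83.3% with TMM, and RNU4-2 was again called, at 3.47 (edgeR adjusted p = 0.00199). RNU4-1 had 124 and 411 CPM in the T0 pulldowns, against 8.74 and 23.5 CPM in the T0 inputs. Its log2 fold change was 4.05 ± 0.91 (edgeR adjusted p = 0.0552). The T0 pulldowns lay above the T0 inputs for both genes without overlap. DESeq2 called 3 of the 4 genes tested here and 267 of all IDs. RNU5A-1 had 20.9 and 62.1 CPM in the T0 pulldowns, against 1.998 and 4.69 CPM in the T0 inputs (log2 fold change 3.62 ± 1.63, edgeR adjusted p = 0.444). RNU5B-1 had 29.9 and 74.1 CPM in the T0 pulldowns, against 1.25 and 2.11 CPM in the T0 inputs (log2 fold change 4.93 ± 1.62, edgeR adjusted p = 0.334). Replicate 2 was the higher of the T0 pulldowns for all 4 genes. Without it RNU4-2 gave 2.97 (edgeR adjusted p = 0.079), and without T0 input replicate 2 it gave 4.87. With only the T0 libraries in the fit the RNU4-2 call was lost too (4.22, edgeR adjusted p = 0.0578).

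Hippuristanol-treated cells showed the same direction. RNU4-2 had 66.1 and 96.6 CPM in the hippuristanol pulldowns, against 9.51 and 9.71 CPM in their inputs. The log2 fold change was 3.08 ± 0.58 (SE; edgeR adjusted p = 0.0156), where 0.252% of tested IDs were called and 0.246% as higher. With plain library size in place of TMM, 57.1% of called IDs were higher, against 97.6% with TMM. The RNU4-2 call was lost in each of the 4 fits without 1 library (adjusted p 0.107 to 0.274) and with only those libraries in the fit (0.0675). RNU4-1 had 40.0 and 39.6 CPM in the pulldowns, against 5.06 and 6.005 CPM in the inputs (log2 fold change 2.84 ± 0.88, edgeR adjusted p = 0.487). RNU5A-1 had 12.4 and 2.03 CPM in the pulldowns, against 0.618 and 0.901 CPM in the inputs. RNU5B-1 had 6.89 and 2.03 CPM in the pulldowns, against 0.124 and 0.600 CPM in the inputs. Neither U5 gene was called.

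Heat-shocked cells at T20 had pulldowns above inputs for all 4 genes, and none was called by edgeR. RNU4-2 had 131 and 139 CPM in the T20 pulldowns, against 38.8 and 19.5 CPM in the T20 inputs (log2 fold change 2.22 ± 0.56 SE, edgeR adjusted p = 0.11, where 0.372% of tested IDs were called). RNU4-1 had 35.0 and 46.0 CPM in the T20 pulldowns, against 15.5 and 2.93 CPM in the T20 inputs (log2 fold change 2.14 ± 0.86, adjusted p = 0.293). DESeq2 called 1 of the 4 genes and 659 of all IDs. An unadjusted p of 0.05 was passed by 3 of 4 genes and by 2194 of all tested IDs. Across T0, T20 and hippuristanol, pulldown and input ranges did not overlap in 3 of 3 conditions for RNU4-1 and RNU4-2. The share of all tested IDs without overlap was not counted. The U5 values lay the same way, but hippuristanol pulldown replicate 2 held 2 counts of each U5 gene (2.03 CPM), below the floor of 3.05 CPM in that library, so their order there is not resolved.

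**Figure D5:**
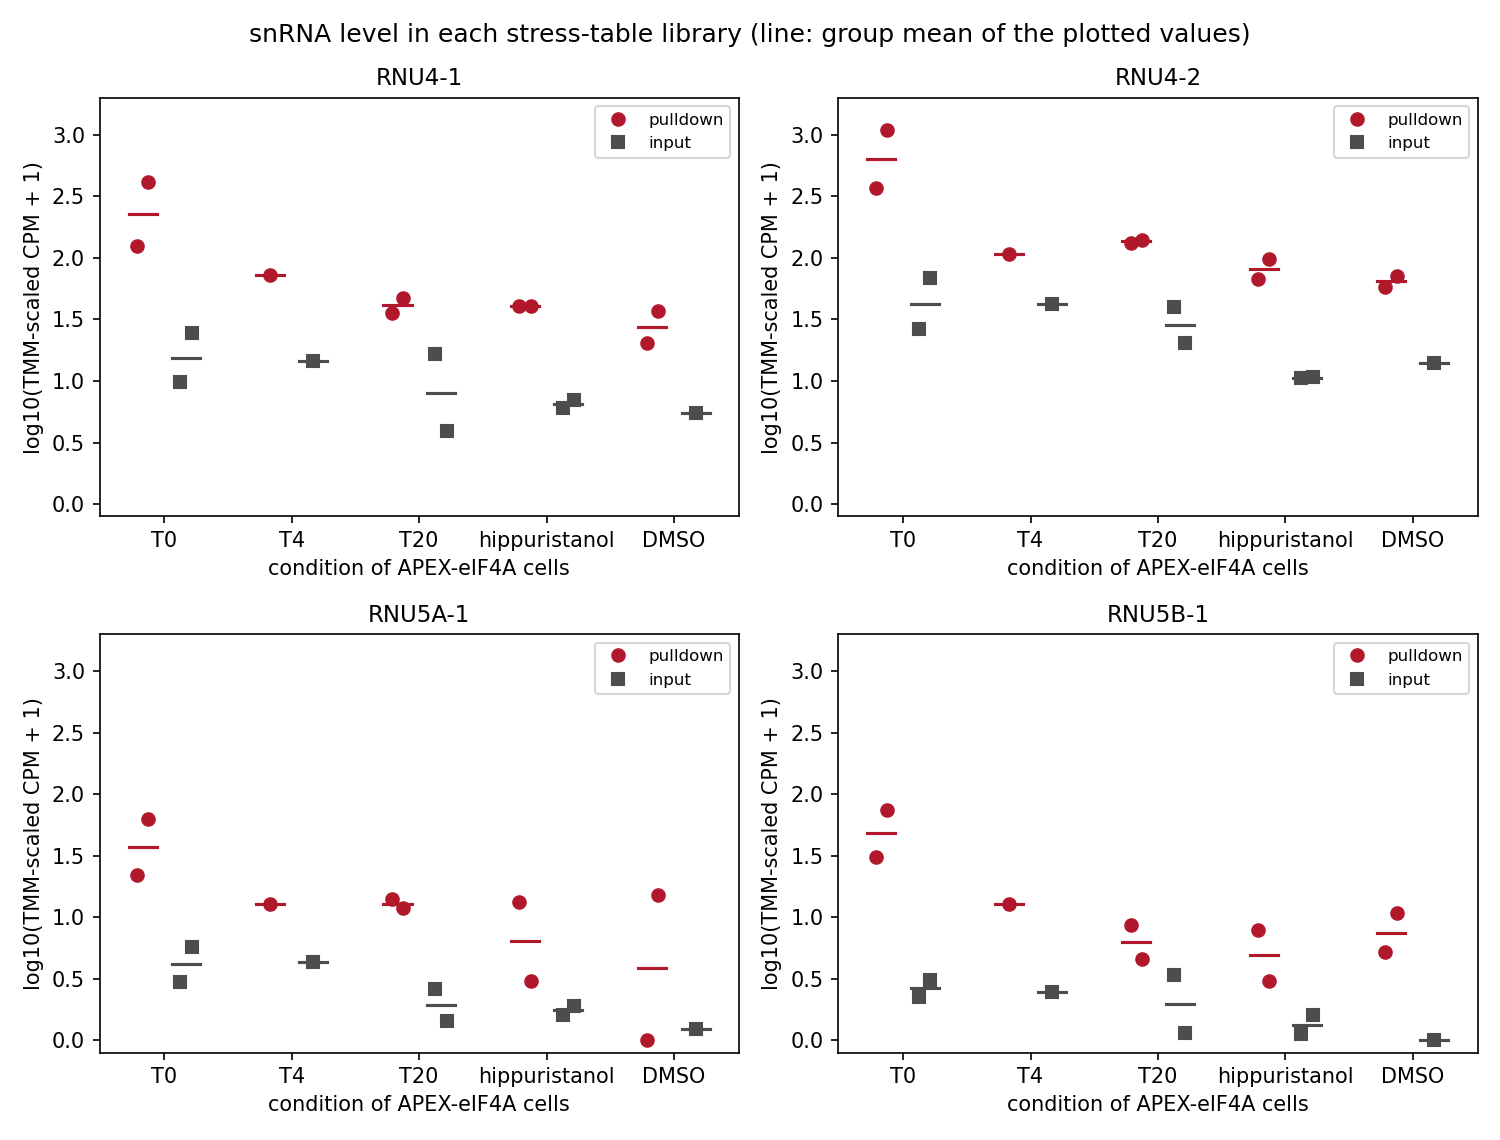
Log10(TMM-scaled CPM + 1) of the 4 tested snRNAs in each stress-table library, by condition, with pulldowns as red circles, inputs as grey squares and lines at the mean of the plotted values. T0 pulldowns are the highest for all 4 genes, and pulldowns lie above inputs except for RNU5A-1 in 1 DMSO pulldown, at 0 counts.

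Along the heat shock the level in pulldowns was highest at T0. RNU4-2 had 371 and 1104 CPM in the T0 pulldowns, 107 CPM in the single T4 pulldown and 131 and 139 CPM in the T20 pulldowns. RNU4-1 had 124 and 411 CPM at T0, 71.5 at T4 and 35.0 and 46.0 at T20. The T20 pulldowns lay below both T0 pulldowns for each gene. The log2 difference of T20 from T0 in pulldowns was -2.45 ± 0.56 for RNU4-2 (SE; edgeR adjusted p = 0.0759) and -2.72 ± 0.87 for RNU4-1 (adjusted p = 0.163). RNU5A-1 gave -1.78 ± 1.54 (edgeR adjusted p = 0.566), with 13.1 and 10.8 CPM at T20, against 20.9 and 62.1 CPM at T0. RNU5B-1 gave -3.20 ± 1.53 (edgeR adjusted p = 0.292), with 7.66 and 3.61 CPM at T20, against 29.9 and 74.1 CPM at T0. By edgeR 0 of 4 were called, as were 0.144% of tested IDs. At an unadjusted p under 0.05 there were 3 of 4 genes and 2858 of all tested IDs. DESeq2 called 2 of the genes, RNU4-1 and RNU4-2, and 1143 of all IDs.

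In inputs the levels at T20 and T0 overlapped for the U4 genes. RNU4-2 had 38.8 and 19.5 CPM at T20, against 25.2 and 67.8 CPM at T0, which differed by -0.67 ± 0.53 on the log2 scale (SE; edgeR adjusted p = 1), and the T4 input had 40.9 CPM. RNU4-1 had 15.5 and 2.93 CPM at T20, against 8.74 and 23.5 CPM at T0 (log2 difference -0.80 ± 0.82, edgeR adjusted p = 1), and 13.6 CPM at T4. The RNU5A-1 inputs at T20, 1.59 and 0.439 CPM, lay below those at T0, 1.998 and 4.69 CPM (log2 difference -1.70 ± 1.56). The lower one held 3 counts, the floor. RNU5B-1 had 2.39 and 0.146 CPM at T20, against 1.25 and 2.11 CPM at T0 (log2 difference -0.42 ± 1.44). In these inputs 0 of 4 genes were called by edgeR or DESeq2, and 0 of 4 had an unadjusted p under 0.05. Over all tested IDs edgeR called 0.042%, DESeq2 called 22 IDs, and 228 had an unadjusted p under 0.05. Input-adjusted, T20 minus T0 was -1.77 ± 0.76 for RNU4-2 (edgeR adjusted p = 0.676) and -1.91 ± 1.17 for RNU4-1 (adjusted p = 0.733), where 0% of tested IDs were called. For RNU5A-1 it was -0.08 ± 3.42 and for RNU5B-1 -2.79 ± 2.09. DESeq2 called 0 of 4 genes and 82 of all IDs. Of the 4 genes RNU4-2 alone passed an unadjusted p of 0.05 (0.0293), against 1226 of all tested IDs. The T0 pulldowns that carry the U4 differences held 83 and 172 RNU4-1 counts in libraries of 770084 and 707356 counts.

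No difference between hippuristanol and DMSO pulldowns was called. RNU4-2 had 66.1 and 96.6 CPM under hippuristanol, against 57.1 and 70.4 CPM under DMSO, which differed by 0.36 ± 0.55 on the log2 scale (SE; edgeR adjusted p = 0.857). RNU4-1 had 40.0 and 39.6 CPM under hippuristanol, against 19.3 and 35.8 CPM under DMSO (log2 difference 0.54 ± 0.84, edgeR adjusted p = 0.863). RNU5B-1 had 6.89 and 2.03 CPM, against 4.196 and 9.75 CPM under DMSO, and RNU5A-1 12.4 and 2.03 CPM, against 0 and 14.1 CPM under DMSO. By edgeR and DESeq2 0 of 4 were called, and 0 of 4 had an unadjusted p under 0.05. Over all tested IDs edgeR called 0%, DESeq2 called 797 IDs, and 2394 had an unadjusted p under 0.05. Both DMSO pulldowns lay below the T0 pulldowns in RNU4-2, although neither group had been heat shocked, and the single DMSO input, at 13.1 CPM, lay below the T0 inputs.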

How the data were processed

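RNA-seq libraries of streptavidin pulldowns and inputs were made with a directional kit, per the labels' protocols. Per the submitters' processing notes cutadapt, HISAT2 and featureCounts were used with GRCh38. How reads on several places or on either strand were counted, and with which versions, is not given in the sources used. The deposited values are raw counts per Ensembl ID, in 2 tables of 60483 IDs each, with no normalization by the authors.

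Each table was fitted once over all its libraries with edgeR 4.0.16 in R 4.3.3, one mean per group. IDs were kept by filterByExpr with a minimum count of 10, which left 12427 IDs in the naive and 16678 in the stress table. TMM factors, a robust quasi-likelihood fit and Benjamini-Hochberg adjustment over all tested IDs followed. CPM are counts in each 1000000 of the TMM-scaled library size. SEs are the log2 fold change over the root of F. As alternatives, DESeq2 1.42.0, plain library size, a replicate block, all IDs unfiltered, fits of just the libraries compared and fits without each library were run. The script was tested on simulated counts, with changes placed only in IDs expected to have at least 10 counts in a median library. That test does not cover lower counts. Named genes are the 6 members and, by a fixed rule, the most similar IDs over the naive libraries. The members and lists were chosen with earlier results of these data known. Lists of other snRNAs, snRNP proteins and compartment markers, given by symbol, could not be applied, as 0 IDs could be matched to the RefSeq table, so the labelled compartments and the cell line were not checked against markers. The members were placed on RefSeq by symbol, 6 of 6.

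Hippuristanol inputs were grouped by title, since another label calls them heat shocked. One input column name appears in the descriptions of 2 samples and was assigned by table. Same-numbered libraries deviated together with a correlation of -0.0722 to 0.139 in the naive and -0.00381 to 0.126 in the stress table, and no pairing was assumed. A count of 3 was the floor. Floors and intervals cover counting error only, since reads without molecular identifiers are not independent molecules. The floor was 0.759 to 1.65 CPM in naive pulldowns and 1.36 to 2.95 in naive inputs, and 2.52 to 7.17 CPM in stress-table pulldowns and 0.300 to 0.704 in stress-table inputs.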

Additional observations from a re-analysis of the deposited data

Results flagged for a closer look

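The eIF4A construct in unstressed cells is present in both tables. The pulldown-to-input difference of RNU4-1, RNU4-2, RNU5A-1 and RNU5B-1 had opposite signs in them. The difference between the tables was not tested, since they were normalized apart. RNU4-1 had a log2 fold change of -1.76 in the naive table (edgeR adjusted p = 0.403) and 4.05 at T0 of the stress table (adjusted p = 0.0552). RNU4-2 had -2.24 in the naive table (edgeR adjusted p = 0.102) and 3.99 at T0 (adjusted p = 0.000726). For both genes the naive pulldowns lay below, and the T0 pulldowns above, their inputs. For RNU4-1 the naive order is not resolved, as eIF4A input replicate 1 held 2 counts (1.964 CPM), below its floor of 2.95 CPM. RNU5A-1 had 1.01 and 0.588 CPM in the naive eIF4A pulldowns, against 2.95 and 2.01 CPM in the naive eIF4A inputs. Those levels were 4 and 2 counts, against 3 and 4, so the naive order rested on library scaling and is not resolved. Without the count filter the naive log2 fold change was -1.44 ± 1.10 (SE), and at T0 it was 3.62 (edgeR adjusted p = 0.444). RNU5B-1 had a log2 fold change of -1.89 ± 1.23 (SE) in the naive fit without the count filter and 4.93 at T0 (edgeR adjusted p = 0.334). Its naive order is not resolved either. It had 1.01 and 0 CPM in the naive eIF4A pulldowns, against 0.982 and 3.02 CPM in the naive eIF4A inputs, which overlap. The 10 highest IDs took 55.6% to 70.0% of counts in naive pulldowns and 68.6% to 75.3% in naive inputs, against 16.7% to 30.7% and 6.08% to 16.3% in stress-table pulldowns and inputs. Their part in the result was not tested.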

How the results depend on the processing

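Counts of members called by edgeR depended on the setting. With no count filter 1 was called for C1 and 1 for eIF4A (0 each in the report), 4 for eIF4E (2), 2 for T0 (1), 1 for T20 (0) and 1 for T20 against T0 in pulldowns (0). The eIF4E calls then included RNU5A-1 (log2 fold change -4.05, edgeR adjusted p = 0.0153) and RNU5B-1 (-7.09, adjusted p = 0.00229). Their eIF4E pulldowns held 3 and 0 summed counts, and eIF4E input replicate 2 held 22 and 18. DESeq2 called 1 for C1, 3 for T0, 1 for T20, 2 for hippuristanol and 2 for T20 against T0 in pulldowns. With only the libraries compared in the fit, 1 was called for eIF4A and 0 for CBX1 against the cytoplasmic pulldowns, T0 and hippuristanol. With the replicate block, 1 was called for C1, 2 for T0, 1 for T20 and 2 for hippuristanol, though the numbers were not shown to pair libraries, and RNU4-2 for eIF4E was -3.73. Leaving out 1 library gave 0 to 3 for eIF4E, 0 to 1 for CBX1 against the cytoplasmic pulldowns, 0 to 1 for T0, 0 for hippuristanol and 0 to 1 for T20 against T0 in pulldowns. RNU4-2 in that last comparison was called without T0 pulldown replicate 1 (-3.03, edgeR adjusted p = 0.0402). Some uncalled values changed sign. RNU4-2 in CBX1 against cytoplasmic inputs was 0.0371 with plain library size. RNU5A-1 for T20 against T0, input-adjusted, was 0.230 with library size and 0.184 with the block. RNU5A-1 for hippuristanol against DMSO was -0.168 with library size, -0.0273 with no filter, -0.0413 in DESeq2 and -0.0135 with only the libraries compared. Without 1 library each, RNU4-1 ran from -0.95 to 0.96 for CBX1 against its input and from -0.14 to 1.76 for CBX1 against cytoplasmic pulldowns, and RNU4-2 from -0.41 to 0.15 in the inputs of that comparison and from -0.33 to 2.46 for CBX1 against GFP. For T20 against T0 inputs RNU4-1 ran from -2.44 to 0.0697, RNU4-2 from -1.25 to 0.21 and RNU5B-1 from -3.24 to 0.51. Input-adjusted, RNU5A-1 ran from -0.81 to 1.04 and RNU5B-1 from -3.71 to 0.0408. For hippuristanol against DMSO RNU5A-1 ran from -1.74 to 7.81 and RNU5B-1 from -1.75 to 0.0418. The cause was not tested. Plain library size moved the median of all IDs, for eIF4E to 0.89 from 0.02 and for T0 to -1.05 from -0.55, and RNU4-2 relative to that median was -3.72 against -3.75 for eIF4E. Over all IDs, calls for eIF4E were 4525 with library size (98.6% higher) against 312 (48.7% higher), for eIF4A 3940 against 271, for CBX1 911 against 486 and for T0 188 against 60. With only the libraries compared, calls were 15 against 802 for C1, 722 against 271 for eIF4A, 860 against 486 for CBX1 and 196 against 1157 for CBX1 against cytoplasmic pulldowns, where DESeq2 called 687. DESeq2 called 267 against 60 for T0, 659 against 62 for T20, 199 against 42 for hippuristanol, 1143 against 24 for T20 against T0 in pulldowns and 797 against 0 for hippuristanol against DMSO. Naive U4 pulldown counts of 2 to 27 limit what could be detected.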

Other observations

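U4 summed over its 2 genes and divided by length exceeded U5 in every library with over 3 U5 counts. The ratio was 1.61 to 6.46 in 4 naive pulldowns (median 2.02) and 1.57 to 4.24 in 10 naive inputs (median 2.43). In the stress table it was 3.59 to 27.0 in 9 pulldowns (median 7.86) and 8.44 to 30.9 in 7 inputs (median 10.8). The DMSO input had 149 U4 and 2 U5 counts, a ratio of 60.1 with an exact 95% interval of 16.4 to 501. The ratio covers the U4 and U5 IDs followed here and not other copies of either RNA.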
